A study of Mus musculus with 8 samples.

Results

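The genes described here are 10 genes of the p53 pathway and the BCL2 family of cell death regulators: Trp53, Mdm2, Bax, Bak1, Bbc3, Pmaip1, Bcl2, Bcl2l1, Mcl1 and Bcl2l15. They were chosen by a list of symbols, and each of the 10 was found once among the 43629 genes of the count table. The series measured polyadenylated RNA by sequencing in 4 libraries of tumor and 4 libraries of small intestine. Each of the 8 libraries came from mice of the C57B6/129 background labelled as Apc mutant and as having no treatment, so the mutation is shared by both groups and the comparison is between tissues. Apc is a brake on Wnt signalling, and mice that lose it develop tumors of the intestine. The labels name neither the Apc allele nor the age of the mice, and leave out whether each library is a mouse of its own. The p-values below therefore rest on the spread among the 4 libraries of a tissue, which may be technical. The series title speaks of high-fructose corn syrup, but no library carries such a label.

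The protein p53, product of Trp53, is a transcription factor that is stabilised by DNA damage and other stress, and that switches on genes of cell cycle arrest, DNA repair and cell death. Mdm2 encodes the ubiquitin ligase that marks p53 for destruction and is itself a p53 target, which closes a feedback loop. BCL2 family proteins decide whether the outer mitochondrial membrane is opened: BAX and BAK, encoded by Bax and Bak1, form the pores, guardians such as BCL2, BCL-XL (from Bcl2l1) and MCL1 hold them back, and BH3-only proteins such as PUMA (from Bbc3) and NOXA (from Pmaip1) neutralise the guardians. In the intestine, cells of the crypt are known for dying through p53 and PUMA after irradiation, while the villus epithelium is shed and replaced without pause.

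Since p53 binds DNA, the RefSeq promoter windows of the members were searched on both strands for the p53 consensus decamer. This decamer is only a part of a full p53 site. Each window (build GRCm38.p6) runs from 250 bases before to 50 bases after the start. The table held 13 windows for 9 members. Those of 3 members, Trp53, Mdm2 and Bax, with 1 window each, held a match. No window of Bbc3 held one, and Pmaip1 had no window. Of all 32851 windows 8.36% held a match, a share of windows and not of genes, since a gene can have several. The sequence CTTTGAT, bound by the TCF factors of the Wnt pathway, was in none of the 13 and in 3.73% of all windows, which says only that these letters are not there. The 250 bases before the starts of these 3 genes are shown, since Mdm2 and Bax are textbook p53 targets whose levels are set beside those of Trp53 here, with the match in capitals, read 5′ to 3′ on the strand of the gene. They lie at chr11:69580109-69580358 on the plus strand, chr10:117710759-117711008 on the minus strand and chr7:45466899-45467148 on the minus strand.
Trp53: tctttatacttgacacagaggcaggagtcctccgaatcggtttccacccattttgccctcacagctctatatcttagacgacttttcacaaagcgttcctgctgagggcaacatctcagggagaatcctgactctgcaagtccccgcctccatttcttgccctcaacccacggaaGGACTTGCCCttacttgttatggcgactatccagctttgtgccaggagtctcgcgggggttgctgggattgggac
Mdm2: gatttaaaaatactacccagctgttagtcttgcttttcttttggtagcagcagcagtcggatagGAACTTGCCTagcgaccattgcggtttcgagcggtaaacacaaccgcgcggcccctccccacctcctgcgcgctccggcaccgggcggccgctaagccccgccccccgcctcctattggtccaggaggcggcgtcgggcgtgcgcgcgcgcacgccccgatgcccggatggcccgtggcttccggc
Bax: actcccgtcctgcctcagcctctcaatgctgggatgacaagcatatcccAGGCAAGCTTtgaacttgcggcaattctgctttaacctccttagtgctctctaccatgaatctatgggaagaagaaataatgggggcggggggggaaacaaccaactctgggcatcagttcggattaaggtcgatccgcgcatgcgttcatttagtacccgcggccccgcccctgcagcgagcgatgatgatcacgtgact
The decamer pattern is its own reverse complement, so any match reads as the decamer on both strands. Counting the base before the start as -1, the match runs from -75 to -66 in Trp53, from -186 to -177 in Mdm2 and from -201 to -192 in Bax. A match is a run of letters and says nothing about binding in these tissues.

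In genome build GRCm38 all 10 genes are annotated as protein-coding. The p53 axis comprises Trp53 (ENSMUSG00000059552) on chromosome 11 from 69580359 to 69591873 and Mdm2 (ENSMUSG00000020184) on chromosome 10 from 117688875 to 117710758. Among the pore formers, Bax (ENSMUSG00000003873) on chromosome 7 from 45461697 to 45466898 lies on the same chromosome as Bbc3 (ENSMUSG00000002083) from 16308393 to 16318205, and Bak1 (ENSMUSG00000057789) on chromosome 17 from 27019810 to 27029009 lies elsewhere. The second BH3-only gene is Pmaip1 (ENSMUSG00000024521) on chromosome 18 from 66458533 to 66465565. The guardians are Bcl2 (ENSMUSG00000057329) on chromosome 1 from 106538178 to 106714274, Bcl2l1 (ENSMUSG00000007659) on chromosome 2 from 152780668 to 152831728 and Mcl1 (ENSMUSG00000038612) on chromosome 3 from 95658788 to 95663176. The last is Bcl2l15 (ENSMUSG00000044165) on chromosome 3 from 103832601 to 103854618, on the same chromosome as Mcl1. Counts are summed per gene, so isoforms such as the long and short forms of Bcl2l1, which act in opposite ways, are not resolved.

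Reads assigned to genes numbered 53856561 to 67371180 in the tumor libraries and 62347648 to 84433335 in those of small intestine. At an adjusted p under 0.05 (quasi-likelihood test of edgeR), 74.3% of the 17029 genes tested were called, 38.9% as higher and 35.4% as lower in tumor. Values are TMM-scaled CPM, in which library sizes are corrected by a trimmed mean, a method that assumes that most genes do not change. Scaling by library totals alone moved the median log2 fold change of all genes up by 0.86, to 79.6% called, 62% as higher and 17.6% as lower, so a change smaller than this shift can turn its sign with the scaling. The marker checks went with the tissue labels: 10 of 10 enterocyte markers fell and 8 of 8 Wnt targets rose in tumor. Summed levels of cell type markers and cell cycle genes differed as well. That of 7 fibroblast markers was 1211 to 1923 CPM in tumor and 25.8 to 70.2 in small intestine. The sum of 8 cell cycle genes was 1016 to 1258 and 239 to 392, and that of 10 T and NK cell markers 37.7 to 68.9 and 177 to 739. In such bulk tissue, fewer cells of a type and less RNA per cell cannot be told apart, and the part of cell composition in the results below was not tested.

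Of the 10 members, 2 rose and 6 fell in tumor, and 2 did not pass the test, a share of calls near the 74.3% of all genes. Trp53 and Bax rose. Those that fell were Bcl2l15, Pmaip1, Bak1, Mcl1, Bcl2l1 and Mdm2, while Bbc3 and Bcl2 were not called. The tissues did not overlap for the 8 called members, as for 70.5% of all genes tested. The median log2 fold change of the members was -0.55, against 0.07 for all genes tested. With the size factors of DESeq2 the split was again 2 higher and 6 lower, beside 38.1% and 36.1% of all genes. With library totals it was 5 higher and 4 lower, and the members' median was 0.33, against 0.93 for all genes. With limma on FPKM it was also 5 higher and 4 lower, where 82.7% of 12849 genes were called, 64.6% as higher and 18.1% as lower. Trp53 and Bax stayed higher and Bcl2l15, Pmaip1, Bak1 and Mcl1 stayed lower under each of the 4 other scalings and tables compared (DESeq2 size factors, library totals, TMM without the 50 most abundant genes, and FPKM).

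**Figure D1:**
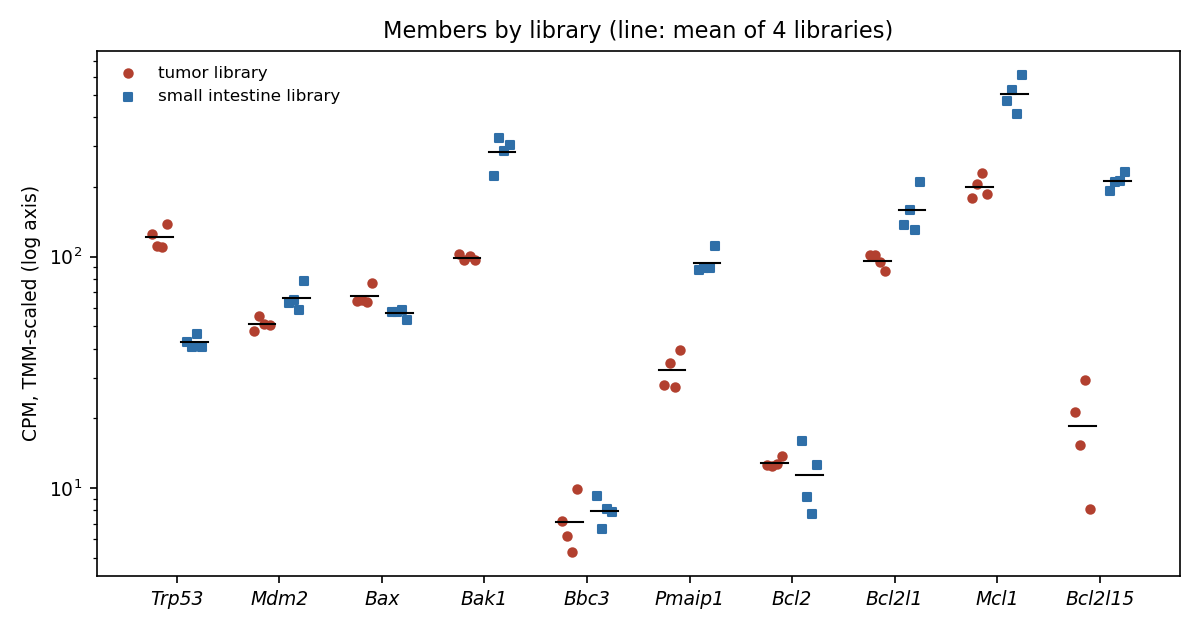
TMM-scaled CPM (log axis) of the 10 members in each library, with tumor libraries as circles, small intestine libraries as squares and lines at the mean of 4 libraries. Trp53 lies higher in tumor, Bak1, Pmaip1, Mcl1 and Bcl2l15 lie lower, and the tissues overlap for Bbc3 and Bcl2.

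Trp53 transcripts were more abundant in tumor, while the direction of its inhibitor Mdm2 turned with the scaling. Trp53 was at 125, 112, 109.9 and 138 CPM in tumor replicates 1 to 4 and at 42.9, 40.6, 46.4 and 40.8 CPM in small intestine replicates 1 to 4. The lowest tumor library thus lay above the highest small intestine library, and the fold was 2.84. The log2 fold change was 1.505 ± 0.10 (SE), with an edgeR adjusted p of 1.21e-06. It was 2.37 with library totals. Counts per gene give transcript levels and show neither p53 protein, which is mainly controlled by its stability, nor mutations of Trp53.

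Mdm2 gave the scaling-dependent case. With TMM it stood at 47.9, 55.3, 51.3 and 50.8 CPM in tumor and 63.2, 64.6, 58.7 and 78.3 CPM in small intestine. Tumor libraries were all below small intestine libraries, by 1.29-fold, and the log2 fold change was -0.37 ± 0.10 (SE) (edgeR adjusted p = 0.00953; 0.000386 to 0.0568 over all alternatives). With library totals it was 0.50 (edgeR adjusted p = 0.000425), and with FPKM 0.50 (limma adjusted p = 0.000386), both called higher in tumor. Mdm2 was the only member called in opposite directions by TMM and library totals, as were 5.43% of all genes tested. Relative to the median of all genes its log2 change was -0.44 with TMM and -0.43 with library totals. Mdm4, the relative of Mdm2 that blocks p53 without degrading it, behaved alike, at 58.3 ± 2.95 against 78.9 ± 11.7 CPM (SD, n = 4 each). Its log2 fold change was -0.44 ± 0.11 (SE) with TMM, called lower, and 0.43 with library totals, called higher.

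The pore formers moved in opposite directions. Bak1 was at 102, 97.0, 100.1 and 96.5 CPM in tumor and at 223, 324, 286 and 303 CPM in small intestine. Tumor libraries lay close together and below each small intestine library, by 2.87-fold, with a log2 fold change of -1.52 ± 0.12 (SE) and an edgeR adjusted p of 3.74e-06. Bak1 shares its locus with Ggnbp1 on the opposite strand, which held 76 to 218 counts per library, and the strand setting of the counting is not known.

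Bax, by contrast, was at 64.5, 64.7, 63.6 and 76.8 CPM in tumor and at 57.7, 57.4, 58.8 and 53.2 CPM in small intestine. The tissues did not overlap, but the fold was only 1.19, with a log2 fold change of 0.25 ± 0.09 (SE) and an edgeR adjusted p of 0.0277 (9.78e-06 to 0.0877 over all alternatives). The call was lost without small intestine replicate 2 (edgeR adjusted p = 0.0515) and without small intestine replicate 4 (edgeR adjusted p = 0.0686). With library totals the log2 fold change was 1.11. Tumor replicate 4 held the highest Bax and the highest Trp53 level. Bok, the remaining gene of the pore-forming group, was at 102, 115, 109.6 and 82.0 CPM in tumor and 23.0, 18.8, 21.8 and 41.8 CPM in small intestine. Its rise of 3.87-fold (log2 fold change 1.95 ± 0.25 (SE), edgeR adjusted p = 7.18e-05) was of the opposite sign to that of Bak1.

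Of the BH3-only members, Pmaip1 fell and Bbc3 was not called. Pmaip1 was at 28.0, 34.7, 27.3 and 39.3 CPM in tumor and 87.9, 89.1, 89.0 and 111 CPM in small intestine. Each tumor library was below each small intestine library, by 2.91-fold, with a log2 fold change of -1.54 ± 0.14 (SE) and an edgeR adjusted p of 8.86e-06. It was lower with library totals too, at -0.67. Bbc3 was at 7.22, 6.19, 5.30 and 9.86 CPM in tumor and 9.20, 6.61, 8.13 and 7.87 CPM in small intestine. The tissues overlapped, tumor replicate 4 being the highest of the 8 libraries and tumor replicate 3 the lowest. The log2 fold change of -0.16 ± 0.21 (SE) did not pass (edgeR adjusted p = 0.529; 0.0165 to 0.986 over all alternatives). With library totals Bbc3 was called higher, at 0.71 (edgeR adjusted p = 0.0201), and with FPKM, at 0.57.

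Of the other BH3-only genes, taken from a list of 15 further BCL2 family genes, Bcl2l11, Bmf and Bik rose and Bad fell. Bcl2l11 encodes BIM, a BH3-only protein that binds each of the guardians, and was at 70.6, 72.9, 65.4 and 81.4 CPM in tumor and 21.9, 19.8, 15.8 and 28.0 CPM in small intestine. The tissues were far apart, by 3.39-fold, with an edgeR adjusted p of 1.03e-05. Bmf, whose protein is sequestered at the cytoskeleton, was at 51.6, 54.6, 53.7 and 42.8 CPM in tumor and 11.2, 13.02, 10.9 and 5.92 CPM in small intestine. It rose 4.94-fold, and its lowest small intestine library was replicate 4. Bik, whose protein sits on the endoplasmic reticulum, rose 7.56-fold from a low level, at 3.44 ± 0.965 against 0.454 ± 0.195 CPM (SD, n = 4 each).

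Bad, whose protein is held inactive by survival kinases, went the other way, at 23.3, 23.2, 25.5 and 22.1 CPM in tumor and 60.1, 62.3, 59.5 and 66.7 CPM in small intestine. It fell 2.64-fold (log2 fold change -1.40 ± 0.08 (SE), edgeR adjusted p = 6.01e-07), and its overlapping neighbour Gpr137, on the opposite strand, held 1215 to 1303 counts in tumor and 2083 to 2800 in small intestine. Bid, which links death receptors to mitochondria, was at 28.0, 28.2, 25.3 and 34.6 CPM in tumor and 28.8, 67.2, 30.6 and 37.1 CPM in small intestine. Small intestine replicate 2 stood far above the other 3, and Bid was not called (log2 fold change -0.50 ± 0.26 (SE), edgeR adjusted p = 0.108; 0.0523 to 0.350 over all alternatives). The same library had the highest summed T and NK cell marker level, 739 CPM. The other small intestine libraries did not follow this order. Replicate 3, with the next highest sum of 538 CPM, had less Bid than replicate 4, with the lowest sum of 177 CPM. A link was not tested. Bid overlaps Bcl2l13 on the opposite strand. Hrk, a BH3-only gene of neurons, held 5 counts in all of tumor and 0 in all of small intestine, and was not tested.

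Of the 3 guardians among the members, Mcl1 and Bcl2l1 fell in tumor under TMM and Bcl2 was not called. Mcl1, a short-lived guardian, was at 179.8, 206, 231 and 187 CPM in tumor and 471, 526, 412 and 612 CPM in small intestine. All tumor libraries were below all small intestine libraries, by 2.52-fold (log2 fold change -1.33 ± 0.14 (SE), edgeR adjusted p = 2.6e-05). It also fell with library totals, by 0.46 on the log2 scale. Bcl2l1 was at 102, 101, 94.6 and 86.6 CPM in tumor and 136, 159.8, 131 and 210.1 CPM in small intestine. Again the tissues did not overlap, by 1.66-fold (log2 fold change -0.73 ± 0.15 (SE), edgeR adjusted p = 0.00177; 7.08e-05 to 0.282 over all alternatives), with small intestine replicate 4 the highest. With library totals Bcl2l1 stood at 0.15 (edgeR adjusted p = 0.282) and with FPKM at 0.29 (limma adjusted p = 0.0513), neither called.

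Bcl2 was at 12.6, 12.5, 12.7 and 13.7 CPM in tumor and 15.9, 9.13, 7.68 and 12.6 CPM in small intestine. The tumor libraries were within a narrow range that small intestine replicate 1 exceeded and replicates 2 and 3 did not reach. The log2 fold change was 0.19 ± 0.22 (SE) (edgeR adjusted p = 0.453; 0.000855 to 0.869 over all alternatives), and with library totals it was called higher at 1.05. BCL2 is abundant in lymphocytes, and all 10 T and NK cell markers fell in tumor (6 of 10 with library totals). Within small intestine, however, replicates 2 and 3 had the highest summed T and NK cell markers, 739 and 538 CPM, and the lowest Bcl2. A link of the Bcl2 level to lymphocyte markers was not tested. Of 8 B and plasma cell markers 5 fell, among them Pax5, a defining gene of B cells, at or under 0.0124 CPM in each tumor library. The fall did not extend to the whole list. Jchain, Mzb1 and Tnfrsf17 were not called, with log2 fold changes of 0.46, -0.07 and -0.71. The summed level of the 8 markers overlapped, at 182 to 861 CPM in tumor against 180 to 1021 for small intestine.

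Among the other guardians, Bcl2l2 followed Mdm2 in turning with the scaling. It stood at 48.5 ± 1.30 against 64.4 ± 5.605 CPM (SD, n = 4 each), with a log2 fold change of -0.41 ± 0.08 (SE) with TMM and 0.46 with library totals, called in both directions. The Bcl2a1 genes, guardians of blood cells, were low. Bcl2a1a was at 1.77 ± 0.637 against 0.526 ± 0.186 CPM (SD, n = 4 each) and rose 3.37-fold (edgeR adjusted p = 0.00240). Bcl2a1b and Bcl2a1d had log2 fold changes of 0.58 and 0.49 and were not called (edgeR adjusted p = 0.282 and 0.403; 0.00219 to 0.518 and 0.00725 to 0.701 over all alternatives). Bcl2a1b was called at 1.15 without small intestine replicate 2. These 3 are near-identical copies whose counts are uncertain one by one, and beside them the 9 myeloid markers summed to 232 to 443 CPM in tumor and 81.6 to 204 in small intestine. Bcl2l10 held 4 counts in tumor and 9 in small intestine and was not tested.

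Bcl2l15 changed most of the 10. This gene, also known as Bfk, encodes a BCL2 family member of the gastrointestinal tract with BH2 and BH3 regions. It was at 21.2, 15.3, 29.4 and 8.10 CPM in tumor and 192, 210.4, 213 and 232 CPM in small intestine. The small intestine libraries lay close together, whereas the tumor libraries spread from replicate 4 at the bottom to replicate 3 at the top. The fall was 11.4-fold, with a log2 fold change of -3.52 ± 0.35 (SE) and an edgeR adjusted p of 1.43e-05. It was -3.79 to -3.23 with any 1 library left out. Beside it, the summed level of 10 enterocyte markers was 771 to 1124 CPM in tumor and 60259 to 74862 in small intestine. Within tumor, the enterocyte sum was 771, 1124, 847 and 788 CPM in replicates 1 to 4 and that of 7 pan-epithelial markers 8091, 8499.8, 8422 and 6221 CPM. Replicate 4, the lowest in Bcl2l15, was the lowest in the pan-epithelial sum and, at 788 CPM, close to the lowest enterocyte sum of 771 CPM. Neither sum was highest in replicate 3. A link of the Bcl2l15 level to either sum was not tested.

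Bcl2l14, a divergent relative, shared the direction and the order of the tumor libraries at both ends. It was at 15.2, 15.5, 22.2 and 11.8 CPM in tumor and 38.5, 30.0, 43.4 and 39.8 CPM in small intestine. Its fall of 2.35-fold passed with TMM (edgeR adjusted p = 0.000317) and not with library totals, where it stood at -0.37 (edgeR adjusted p = 0.106, within 2.33e-08 to 0.132 over all alternatives). Bcl2l12 rose 1.36-fold at a margin of the test (edgeR adjusted p = 0.0469; 1.53e-05 to 0.107 over all alternatives), and lost the call with any of 6 libraries left out: tumor replicates 2, 3 and 4 and small intestine replicates 1, 2 and 4. It also lost it with the size factors of DESeq2 (edgeR adjusted p = 0.0524). It overlaps Irf3 on the opposite strand. Bcl2l13, a mitophagy receptor, was at 50.3 ± 2.33 against 46.9 ± 6.32 CPM (SD, n = 4 each) and was not called (edgeR adjusted p = 0.401; 8.31e-06 to 0.707 over all alternatives). Of the 13 further family genes tested, 6 rose and 3 fell with TMM, beside 38.9% and 35.4% of all genes, and their median log2 fold change was 0.49, against 0.07. With library totals 10 rose and 1 fell, beside 62% and 17.6% of all genes, and the median was 1.34, against 0.93.

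**Figure D2:**
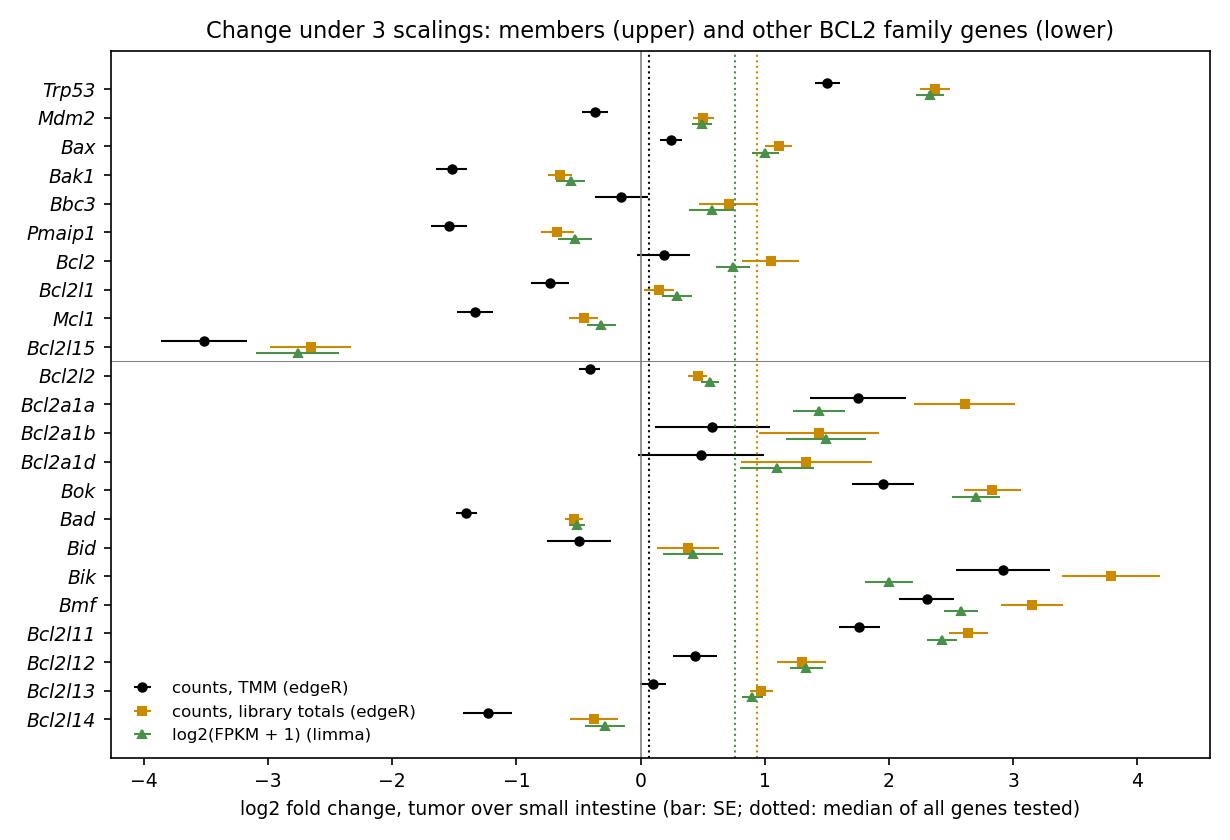
Log2 fold change of tumor over small intestine with its SE for the 10 members and 13 further BCL2 family genes, under TMM (circles), library totals (squares) and log2(FPKM + 1) (triangles), with dotted lines at the median of all genes tested. Mdm2, Bbc3, Bcl2l1, Bcl2l2 and Bid change sign between TMM and library totals, while Trp53, Bok, Bmf, Bik and Bcl2l11 lie to the right and Bcl2l15, Pmaip1, Bak1, Mcl1 and Bad to the left under each.

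Levels of different genes can be compared only per length, so the deposited FPKM values, fragments scaled to gene length and library size, were used to order the members. In tumor, Bax, Mcl1 and Trp53 led, at 75.4 to 94.4, 73.3 to 91.0 and 71.7 to 94.4 FPKM over 4 libraries, and these ranges overlapped. Bak1 and Bcl2l1 followed, at 64.8 to 67.1 and 45.4 to 50.9 FPKM, each apart from its neighbours. Bcl2l15, Mdm2 and Pmaip1 came next with overlapping neighbours, at 11.8 to 43.2, 19.9 to 22.8 and 14.5 to 22.3 FPKM. Bbc3 and Bcl2 were the lowest, at 3.19 to 6.86 and 2.43 to 2.87 FPKM.

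In small intestine the order began with Bcl2l15, at 155 to 180.4 FPKM, above each other member. Mcl1 and Bak1 came next with overlapping ranges, at 86.2 to 119 and 79.2 to 117 FPKM, and then Bax and Bcl2l1, which also overlapped, at 34.1 to 43.1 and 33.4 to 48.7 FPKM. Pmaip1 was at 24.1 to 29.9 FPKM. Trp53 and Mdm2 overlapped at 13.3 to 17.2 and 13.3 to 16.4 FPKM, so that Trp53 ranked below Pmaip1 in small intestine and above Bak1 in tumor. Bbc3 and Bcl2 were again at the bottom, at 2.31 to 3.001 and 0.781 to 1.70 FPKM. Both tissues thus held far more transcript of Mcl1 and Bcl2l1 than of Bcl2.

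Ratios of 2 members within a library do not move with the scaling between tissues, and were taken from FPKM as a description with no test. The ratio of Mdm2 to Trp53 was 0.224 to 0.306 in tumor and 0.773 to 1.23 in small intestine. The ranges did not overlap, and Mdm2 transcripts were thus fewer per Trp53 transcript in each tumor library whichever scaling is used. Bak1 to Bax was 0.711 to 0.859 in tumor and 1.93 to 2.90 in small intestine. Bax thus exceeded Bak1 in each tumor library and Bak1 exceeded Bax in each small intestine library. Both ratios set a member called lower with TMM over a member called higher, so their separation adds no support to those calls.

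Ratios of the pore formers to the guardian Bcl2l1 went opposite ways. Bak1 to Bax is their quotient, so this is no separate support. Bax to Bcl2l1 was 1.56 to 2.08 in tumor and 0.701 to 1.28 in small intestine, and Bak1 to Bcl2l1 was 1.28 to 1.48 in tumor and 2.04 to 2.98 in small intestine. Neither pair of ranges overlapped. Bax to Bcl2, a ratio often quoted as a rheostat of cell death, was 30.5 to 32.9 in tumor and 24.1 to 54.6 in small intestine, where it spread on both sides of the tumor values.

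Among the guardians, Mcl1 to Bcl2l1 was 1.48 to 1.94 in tumor and 2.43 to 2.75 in small intestine, without overlap. Bcl2 to Bcl2l1 was 0.0479 to 0.0633 in tumor and 0.0221 to 0.0490 in small intestine, and small intestine replicate 1 reached into the tumor range. With counts in place of FPKM, each tumor library was above each small intestine library for this pair. Bcl2l15 to Bcl2l1 was 0.260 to 0.923 in tumor and 3.69 to 5.22 in small intestine. For the BH3-only pair, Bbc3 to Pmaip1 was 0.211 to 0.308 in tumor and 0.0773 to 0.122 in small intestine, again without overlap.

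**Figure D3:**
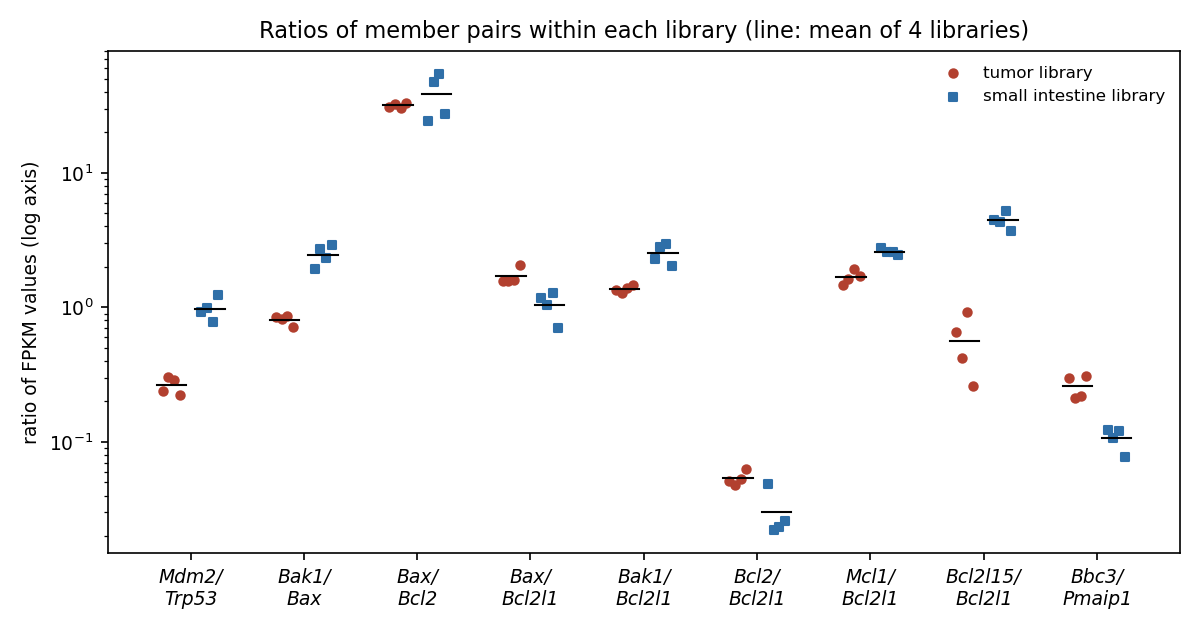
Ratios of FPKM values of 9 pairs of members (log axis) in each library, with tumor as circles, small intestine as squares and lines at the mean of 4 libraries. The tissues separate for 7 pairs, whereas Bax to Bcl2 and Bcl2 to Bcl2l1 overlap. The pairs share genes and are not independent. Of all single genes tested, 70.5% do not overlap with TMM, and the share over pairs of any genes was not computed.

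Textbook targets of p53 went both ways. Of 26 target genes that are not members, 13 were called higher, 10 lower and 3 neither. The shares over all genes were 38.9% and 35.4%. The targets' median log2 fold change was 0.19, against 0.07 for all genes. With library totals 17 rose and 5 fell, beside 62% and 17.6% of all genes. Cdkn1a, which encodes the cell cycle inhibitor p21, was at 122, 157, 135 and 164 CPM in tumor and 472, 773, 609 and 786 CPM in small intestine. It fell 4.57-fold, without overlap (log2 fold change -2.19 ± 0.19 (SE), edgeR adjusted p = 5.44e-06), and also with library totals, at -1.31. p21 is also a product of differentiated villus cells. Ccng1, a p53 target that feeds back on p53, was at 67.9 ± 17.6 against 75.7 ± 12.2 CPM (SD, n = 4 each). It was not called with TMM (log2 fold change -0.16 ± 0.18 (SE), edgeR adjusted p = 0.453; 0.00389 to 0.903 over all alternatives) and was called higher with library totals, at 0.72.

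The largest rises among the targets at 1 CPM or more were in Phlda3, Eda2r and Plk2. Phlda3 encodes a repressor of AKT signalling and was at 24.5, 29.1, 28.3 and 44.6 CPM in tumor and 0.903, 0.831, 0.798 and 0.466 CPM in small intestine, a 42.1-fold rise. Eda2r, a gene of the TNF receptor family, was at 1.95, 2.13, 1.09 and 7.25 CPM in tumor and 0.122, 0.0884, 0.0420 and 0.0863 CPM in small intestine. Its level in tumor replicate 4 was far above that in the other tumor libraries. This library was also the highest tumor library for Trp53, Bax, Bbc3, Pmaip1 and Phlda3. Mdm2 was not highest there, at 50.8 CPM against 47.9 to 55.3 in the others. The share of all genes that were highest in this library was not computed. Further targets went both ways in this library. Cdkn1a (164 CPM) and Ccng1 (93.6 CPM) were at their highest tumor level, while Gadd45a (6.18 CPM) and Fas (3.96 CPM) were at their lowest. Plk2, a kinase of the stress response, was at 82.1 ± 17.2 against 5.80 ± 2.21 CPM (SD, n = 4 each), 14.1-fold higher. The edgeR adjusted p was 3.02e-07 for Phlda3, 0.000120 for Eda2r and 3.93e-06 for Plk2.

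The largest falls were in Sesn1, Gadd45a and Fas. Sesn1 encodes a stress-induced inhibitor of mTORC1 and was at 7.47, 6.49, 8.02 and 8.83 CPM in tumor and 167, 192, 148 and 197 CPM in small intestine, 22.8-fold lower (edgeR adjusted p = 3.33e-08). Gadd45a, a gene of growth arrest and DNA repair, was at 8.46 ± 1.60 against 73.1 ± 30.1 CPM (SD, n = 4 each), 8.65-fold lower. Fas, the death receptor, was at 5.35, 5.63, 5.55 and 3.96 CPM in tumor and 26.9, 50.7, 27.9 and 23.4 CPM in small intestine, 6.29-fold lower, and was highest in small intestine replicate 2, the library with the highest summed T and NK cell markers. Each of these 3 falls and 3 rises kept its direction with library totals.

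Genes around p53 also split. Of 17 regulators and relatives tested, 7 rose, 3 fell and 7 did not pass, with a median log2 fold change of 0.07, as for all genes. The shares over all genes were 38.9% higher and 35.4% lower. With library totals 15 rose and 1 fell, where 62% and 17.6% of all genes did. The damage kinase Atm was at 27.7 ± 4.99 against 5.42 ± 1.07 CPM, the checkpoint kinase Chek1 at 10.5 ± 2.21 against 2.95 ± 0.656 CPM and the repair scaffold Trp53bp1 at 35.7 ± 2.96 against 10.1 ± 1.12 CPM (SD, n = 4 each). These were 5.11-, 3.57- and 3.52-fold higher in tumor, with edgeR adjusted p of 3.66e-06, 6.94e-05 and 8.69e-07. Trp53bp1 overlaps Tubgcp4 on the opposite strand. Ppp1r13b, which encodes the p53 cofactor ASPP1, fell 2.13-fold (edgeR adjusted p = 7.21e-06), beside its antisense neighbour Zfyve21 at 1152 to 1466 counts in tumor and 6248 to 8806 in small intestine. The deacetylase Sirt1 fell 1.59-fold with TMM and stood at 0.20 with library totals, where it was not called (edgeR adjusted p = 0.116, within 1.25e-06 to 0.116 over all alternatives).

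The p53 relatives were scarce. Trp63 held 17 to 29 counts in each tumor library and 0 in each small intestine library. Against a floor of 3 counts per library, its mean of 0.277 CPM in tumor was at least 5.04-fold higher. Trp73, with 32 counts in all of tumor and 19 in all of small intestine, was too low to be tested.

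Of 24 genes of the caspase machinery, its inhibitors and the death receptors, 17 fell, 3 rose and 4 did not pass, where 35.4% of all genes tested fell and 38.9% rose. Their median log2 fold change was -0.85, against 0.07 for all genes. With library totals 5 fell and 8 rose, beside 17.6% and 62% of all genes, with a median of 0.03 against 0.93. Apaf1, Fas and Tnfrsf10b are also among the 26 targets above. Casp6, an executioner caspase, was at 148, 158, 154 and 140.3 CPM in tumor and 11.9, 12.98, 19.3 and 12.5 CPM in small intestine. The tissues did not overlap, and replicate 3 stood above the others in small intestine. Casp6 rose 10.6-fold (log2 fold change 3.41 ± 0.16 (SE), edgeR adjusted p = 1.98e-07), and kept this direction with library totals, at 4.27 on the log2 scale.

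Of the death receptor genes, Tnfrsf10b, the receptor for TRAIL, rose 2.26-fold, at 14.7 ± 1.48 against 6.50 ± 0.643 CPM (SD, n = 4 each). Fasl, the ligand of Fas made by T and NK cells, was at 0.353, 0.297, 0.335 and 0.395 CPM in tumor and 0.834, 3.20, 2.10 and 0.811 CPM in small intestine. It fell 5.002-fold (edgeR adjusted p = 0.00167), and its 2 highest libraries, small intestine replicates 2 and 3, were also the highest in summed T and NK cell markers, at 739 and 538 CPM against 177 and 209 in the other small intestine libraries. Birc5 encodes survivin, an inhibitor of apoptosis that is made in dividing cells, and was at 46.3, 44.2, 49.0 and 54.2 CPM in tumor and 21.8, 29.4, 46.4 and 22.7 CPM in small intestine. The tissues overlapped through small intestine replicate 3, which was also the highest small intestine library in summed cell cycle genes (392 CPM against 239 to 336). Birc5 rose 1.61-fold (edgeR adjusted p = 0.0200; 0.000185 to 0.0550 over all alternatives), and lost the call without small intestine replicate 1 (adjusted p = 0.0550) or 4 (0.0527).

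**Figure D4:**
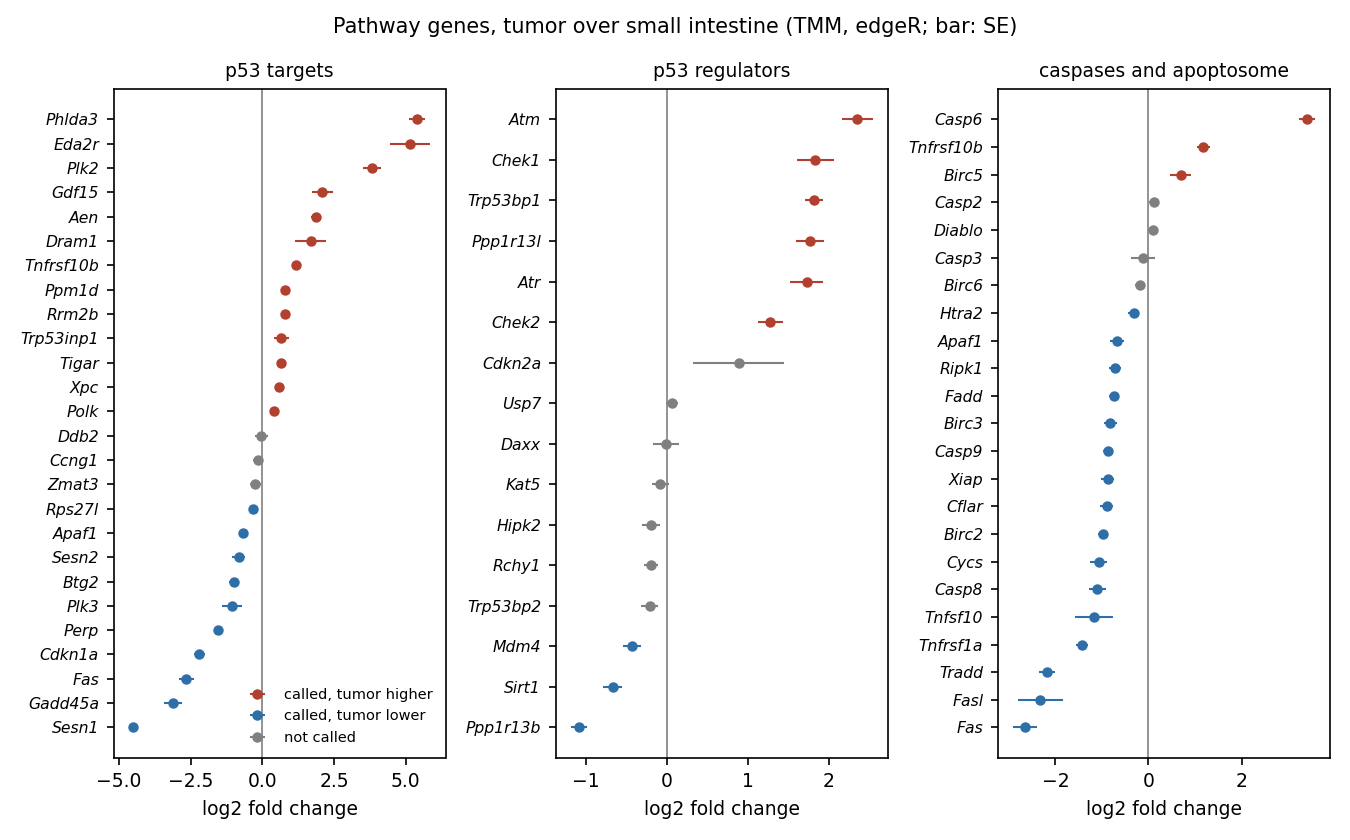
Log2 fold change of tumor over small intestine with its SE (TMM, edgeR) for p53 target genes, p53 regulators and genes of the caspase machinery, colored by whether the gene was called and in which direction. Trp63, with 0 counts in small intestine, is among the genes left out. Targets run from Sesn1 at -4.51 to Phlda3 at 5.40, and most caspase machinery genes lie left of 0, with Casp6 at 3.41 the furthest to the right.

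No library was highest or lowest in its tissue for all 10 members. Tumor replicate 4 was highest for 5 of them (Trp53, Bax, Bbc3, Pmaip1 and Bcl2) and lowest for 3, and each member's level there, divided by the mean of the other tumor libraries, had a median of 1.04. Small intestine replicate 4 was highest for 5 and lowest for 1, with a median of 1.14. The same median was between 0.926 and 0.992 in the other 6 libraries.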

How the data were processed

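Gene-level read counts and FPKM values of 8 libraries (4 tumor, 4 small intestine) were used as deposited. The authors' counts are whole numbers with no normalization, and the authors' FPKM values are scaled for length and library size. FastQC, STAR, Cufflinks 2.2.1, HTSeq 0.6.0 and GRCm38 are named, per the submitters' processing notes. For annotation release, strand setting and reads shared by genes, the sources used here give nothing. Symbols and coordinates come from GENCODE M21, matched by identifier (42462 of 43629).

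Counts were tested with edgeR 4.0.16 (quasi-likelihood, TMM, filterByExpr, tissue as the only term) in R 4.3.3, and log2(FPKM + 1) with limma 3.58.1 for genes averaging 1 FPKM or more (fold changes of low genes come out too small on this scale). P-values were adjusted over all genes tested by the Benjamini-Hochberg method and called under 0.05. Alternatives were other scalings, DESeq2 1.42.0, other filters, a replicate block and each library left out. Reads carry no molecular identifiers, so floors cover counting error only.

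The members and the gene lists were chosen with earlier results of these data known. Named were each member, each tested BCL2 family gene, up to 3 called genes per direction of each further pathway list (mean of at least 1 CPM, no overlap), and Cdkn1a, Ccng1, Mdm4, Trp63, Trp73 and Birc5 in any case. Some listed genes are not reported here by name. Other cell type lists gave 7 of 9 myeloid, 7 of 7 fibroblast, 6 of 6 endothelial, 4 of 6 smooth muscle and 8 of 8 cell cycle genes higher, and 5 of 7 pan-epithelial genes lower and 1 higher (3 and 3 with library totals).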

Additional observations from a re-analysis of the deposited data

Results flagged for a closer look

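Among 87 groups of 4 libraries examined for the named genes, 6 held a library set apart from the other 3 beyond Dixon's critical value for the share of the range that the gap takes up. About 1 group in 20 does so by chance. In tumor replicate 4, Bax was the highest at 76.8 CPM, against 63.6 to 64.7 in the others. Eda2r was also highest there, at 7.25 CPM against 1.09 to 2.13, and Fas was lowest, at 3.96 CPM against 5.35 to 5.63. In small intestine, Pmaip1 was highest in replicate 4, at 111 CPM against 87.9 to 89.1. Fas was highest in replicate 2, at 50.7 CPM against 23.4 to 27.9. Casp6 was highest in replicate 3, at 19.3 CPM against 11.9 to 12.98.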

How the results depend on the processing

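Most changes came with library totals and with FPKM, and the latter differs from TMM in scaling, test, filter and value scale at once. With library totals, 10564 genes were called higher and 2996 lower in tumor, against 6619 and 6030 with TMM, and limma on FPKM gave 2326 lower. Members called higher numbered 5 with library totals and 5 with FPKM, against 2. Log2 fold changes turned positive with library totals for Mdm2 (0.50), Bbc3 (0.71), Bcl2l1 (0.15), Bcl2l2 (0.46), Bid (0.38), Sirt1 (0.20), Mdm4 (0.43) and Ccng1 (0.72), and with FPKM for the same 8 genes, at 0.50, 0.57, 0.29, 0.56, 0.42, 0.22, 0.52 and 0.77 in that order. With any 1 library left out, members called higher were 1 to 2, the 1 being without small intestine replicate 2 or 4, where Bax was lost. Mdm2 was not called with no filter on low counts (-0.27, edgeR adjusted p = 0.0568). Trp53, Pmaip1, Bcl2l15, Mcl1 and Bak1 kept direction and call under all 16 alternatives. The log2 difference of the Bax to Bcl2 ratio was -0.19, 0.0021 from counts, and -0.38 to 0.013 with 1 library left out, so its sign is not settled. The cause of these changes was not tested.

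Replicate numbers share no stated animal or day, and same-numbered libraries did not deviate together (correlations of -0.0612, -0.0654, 0.0139 and -0.148), nor did every library correlate best with its own number. The replicate block gave 11893 calls over all genes, against 12649, and left 1 member called higher, since Bax was no longer called (edgeR adjusted p = 0.0877). It ended the call of Bcl2l12 too. With 53856561 or more counts per library, depth limits only the rarest genes here: Trp73, Hrk and Bcl2l10 were too low to test.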

Other observations

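Some pairs of genes that moved in opposite directions stood out once the values had been seen, and are given as ratios of FPKM within a library, with no test. Bok to Bak1 was 1.06 to 1.499 in tumor and 0.0831 to 0.189 in small intestine, so that Bok, a pore former that the guardians do not restrain well, exceeded Bak1 in each tumor library. Among the BH3-only genes, Bcl2l11 to Bad was 0.624 to 0.873 and 0.0624 to 0.0966, and Bmf to Bad 0.399 to 0.462 and 0.0183 to 0.0390, each in the same order of tissues. Trp53 to Cdkn1a was 0.713 to 1.03 in tumor and 0.0534 to 0.0956 in small intestine. None of these 4 pairs of ranges overlapped, and none did with counts in place of FPKM. Each pair sets a gene that rose over a gene that fell, so this separation came with the choice and adds no support.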
